A study of Mus musculus with 6 samples.

Results

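The genes described here are 10 carriers of sugars, lactate and inositol that belong to the Slc5 and Slc2 families, chosen by symbol. They are Slc5a1, Slc5a2, Slc5a3, Slc5a8, Slc5a10, Slc5a12, Slc2a2, Slc2a4, Slc2a5 and Slc2a9, and all 10 were found among the 24422 genes of the count tables. RNA came from whole kidneys of C57BL/6 mice at postnatal day 13 (P13) on a diet with 220 ppm iron. The 3 Control kidneys had the label wild type and the study describes controls as littermates. The 3 TfR1 knockout kidneys carried floxed Tfr1, the gene of transferrin receptor 1, and Six2Cre, which is active in the nephron progenitors. The collecting duct, stroma and vessels do not arise from those cells, and the study notes that some cells escape deletion. Six2Cre was not listed for the Controls, so the effects of Cre and of the deletion cannot be told apart. Nothing in the labels tells whether the kidneys of a group came from separate litters, and p-values measure the spread between these samples.

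Total counts ran from 16591156 to 22898008 per library. Tfrc, which encodes TfR1, had 5534, 6485 and 3667 normalized counts in the Controls and 6976, 4045 and 5898 in the knockouts, so it did not separate the groups (log2 fold change 0.11 ± 0.29 SE, DESeq2 adjusted p = 0.853). The study floxed only part of the gene, and this count over the whole gene does not measure the deleted part, so it does not check the knockout label. Control 1 and TfR1 knockout 3 held transcripts of adrenal cortex. Star, a steroidogenic gene, had 9334 and 1049 normalized counts there and 134.2 to 350.6 in the other 4 libraries. Control 3 stood apart from its group, with the lowest Control value in 7 of the 10 carriers. Xist, expressed from the inactive X chromosome, had 20259, 20524 and 21223 counts in Control 1, Control 3 and TfR1 knockout 2 and 86 to 1090 in the others, so each group held both sexes by this mark. The 1090 counts were those of TfR1 knockout 3, which also had 2481 counts of Ddx3y, a Y-linked gene, so its signal was mixed. Results that changed without these libraries are given beside them.

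In the kidney, glucose filtered at the glomerulus is taken back by the proximal tubule. SGLT2, the product of Slc5a2, carries sodium with glucose across the apical membrane of the early proximal tubule at high capacity, and SGLT1 (Slc5a1) captures the remainder further along at high affinity. GLUT2 (Slc2a2) lets the glucose leave through the basolateral membrane. Other members of the same families take up lactate and other monocarboxylates (Slc5a8 and Slc5a12), mannose and fructose (Slc5a10), fructose (Slc2a5), urate (Slc2a9) and myo-inositol (Slc5a3). Slc2a4 encodes GLUT4, the insulin-responsive carrier of muscle and fat.

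The sodium-glucose and facilitative pair of the early proximal tubule, Slc5a2 and Slc2a2, fell in TfR1 knockout and the mannose and fructose cotransporter Slc5a10 rose. The other 7 carriers did not pass the test. Thus 1 of 10 was higher, against 7.74% of all 16509 genes tested, and 2 of 10 were lower, against 7.18%, at a DESeq2 adjusted p under 0.05. The same 3 genes passed in edgeR, which called 3.22% of 15308 genes higher and 2.80% lower. The median log2 fold change of the 10 carriers was -0.33, beside 0.0071 over all genes tested, and 8 of 10 had a negative sign. In whole kidney RNA, fewer cells of a type and less RNA per cell cannot be told apart. The proximal tubule markers that bear on this are given further on.

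**Figure D1:**
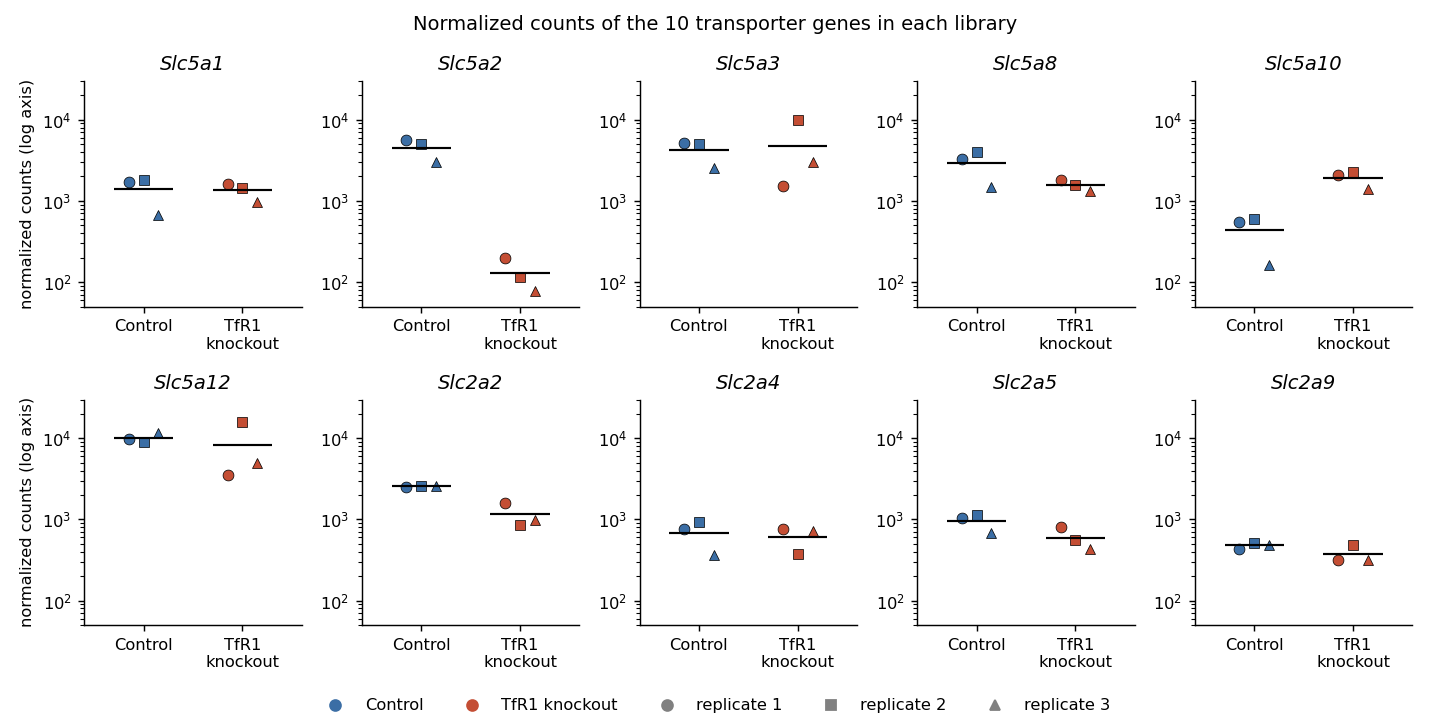
Normalized counts (log axis) of each carrier in the 3 Control and 3 TfR1 knockout libraries. Points are libraries, marker shapes give the replicate number and horizontal lines are group means. The knockout points lie below every Control point for Slc5a2 and Slc2a2 and above every Control point for Slc5a10, and the groups overlap for the other 7 genes.

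The sequences before the starts of the genes that changed are shown to place them beside the factors known to act on proximal tubule genes and on hypoxia-responsive genes. RefSeq windows of GRCm38.p6, 250 bases long and ending just before a start, were available for 7 of the 10 carriers, and Slc5a2, Slc5a12 and Slc2a4 had no entry. Capitals mark a match on either strand to the half-site CAAAGT of HNF4 or to the hypoxia element core ACGTG. Of all 32851 windows of this length, 12.6% held the first and 16.6% the second. The window of Slc2a2 is chr3:28697653-28697902 (+ strand). The windows of Slc5a10 are chr11:61720800-61721049 for the upstream start and chr11:61719986-61720235 for the downstream start (both - strand).
Slc2a2: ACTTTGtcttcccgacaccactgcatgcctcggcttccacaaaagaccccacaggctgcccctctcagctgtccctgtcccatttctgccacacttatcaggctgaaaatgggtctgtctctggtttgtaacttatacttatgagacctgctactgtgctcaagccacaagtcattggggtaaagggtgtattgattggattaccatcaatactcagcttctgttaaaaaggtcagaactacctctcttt
Slc5a10 upstream start: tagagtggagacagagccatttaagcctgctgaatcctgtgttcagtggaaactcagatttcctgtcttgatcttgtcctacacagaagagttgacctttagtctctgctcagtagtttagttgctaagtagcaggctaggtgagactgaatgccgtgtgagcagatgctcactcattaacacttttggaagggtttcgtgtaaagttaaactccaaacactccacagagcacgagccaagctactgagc
Slc5a10 downstream start: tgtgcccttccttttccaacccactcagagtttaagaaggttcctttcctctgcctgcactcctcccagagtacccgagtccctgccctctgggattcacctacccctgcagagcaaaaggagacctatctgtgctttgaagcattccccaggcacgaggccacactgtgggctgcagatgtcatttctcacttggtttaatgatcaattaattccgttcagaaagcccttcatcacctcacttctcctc

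The window of Slc2a2 held 1 HNF4 half-site, whose first base lay 250 bases before the start. Neither window of Slc5a10 held a match to either motif. Among the carriers that did not pass, the Slc5a1 window held 2 overlapping matches to ACGTG, within the palindrome CACGTG. These are the same site read on each strand. The windows of Slc5a3, Slc5a8, Slc2a5 and Slc2a9 held no match. Only the exact letters given were searched, so variant forms of either motif were not counted in any window. A match is a description of these letters only. The transcript of HNF4A, Hnf4a, did not pass the test (log2 fold change -0.24, DESeq2 adjusted p = 0.693).

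Slc5a2 (mm9 chr7:135409171-135415944, + strand) gave 5617, 4982 and 3018 normalized counts in the Controls and 196.9, 115.1 and 78.51 in the knockouts. Every knockout library lay far below the lowest Control. The means were 4539 ± 1355 and 130.2 ± 60.61 (SD, n = 3), which is 34.9-fold lower (log2 fold change -5.12 ± 0.37 SE, DESeq2 adjusted p = 6.69e-40, edgeR 0.0021). The decrease kept its direction and passed with each library left out, at log2 fold changes from -5.56 to -4.86. It was -5.20 with Xist as a covariate and -4.68 without both libraries that held adrenal transcripts. Of its exon bases, 20.61% lay under exons of BC017158 on the opposite strand, and the strand setting of the counting is not given in the sources used here. BC017158 itself had 346.6 to 444.4 normalized counts in Controls and 116.4 to 334.1 in knockouts, a difference that did not pass (adjusted p = 0.137).

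Slc5a1 (chr5:33446868-33505521, + strand), the SGLT1 gene of the later proximal tubule, gave 1716, 1821 and 666.3 normalized counts in Controls and 1632, 1456 and 969.6 in knockouts. The knockout values all lay inside the Control range. The log2 fold change was -0.05 ± 0.39 (DESeq2 adjusted p = 0.953), and its 95% interval ran from 0.57-fold to 1.64-fold, so changes within these limits were not resolved. The sign of this estimate depended on which libraries entered.

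The ratio of both cotransporters was computed in each library. The log2 ratio of Slc5a2 over Slc5a1 was 1.71, 1.45 and 2.18 in the Controls and -3.05, -3.66 and -3.63 in the knockouts. SGLT2 transcript thus exceeded SGLT1 transcript in all 3 Controls and was the lesser in all 3 knockouts. The group means, 1.78 ± 0.37 and -3.45 ± 0.34 (SD, n = 3), differed by -5.23, a 37.4-fold shift (exact permutation test, two-sided, p = 0.1, the smallest that 3 against 3 allows). Leaving out any 1 library gave differences from -5.42 to -5.03.

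Slc5a10 (chr11:61486283-61534328, - strand), which encodes the mannose and fructose cotransporter SGLT5, gave 547.5, 599.9 and 163.6 normalized counts in Controls and 2109, 2248 and 1408 in knockouts. The lowest knockout was above the highest Control, although Control 3 held far less than the other Controls. The means were 437 ± 238.2 and 1922 ± 450.5 (SD, n = 3), a 4.39-fold rise (log2 fold change 2.14 ± 0.44 SE, DESeq2 adjusted p = 4.26e-05, edgeR 0.0391). Without Control 3 the log2 fold change was 1.74 and still passed, and without both libraries with adrenal transcripts it was 2.51. Its exons shared 16.62% of their bases with Fam83g on the opposite strand. Fam83g had 64.58 to 172.3 normalized counts in Controls and 136.2 to 157 in knockouts, below Slc5a10 in each knockout (log2 fold change 0.15, adjusted p = 0.845).

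Divided by exon length, these 3 cotransporters changed places. Slc5a2 made up 74.9%, 71.2% and 81.9% of their summed level per kilobase (kb) in the Controls and 5.01%, 2.96% and 3.16% in the knockouts. Slc5a10 made up 8.95%, 10.5% and 5.44% in Controls and 65.8%, 70.7% and 69.4% in knockouts. Slc5a1 made up 12.7% to 18.3% in Controls and 26.3% to 29.2% in knockouts. The most abundant of the 3 transcripts was therefore Slc5a2 in every Control and Slc5a10 in every knockout. Their summed level was 2587, 2416 and 1273 normalized counts per kb in Controls and 1356, 1344 and 857.7 in knockouts, ranges that overlap. The shares follow from the changes of the genes above and are a description, and transcript shares are not shares of transport.

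**Figure D2:**
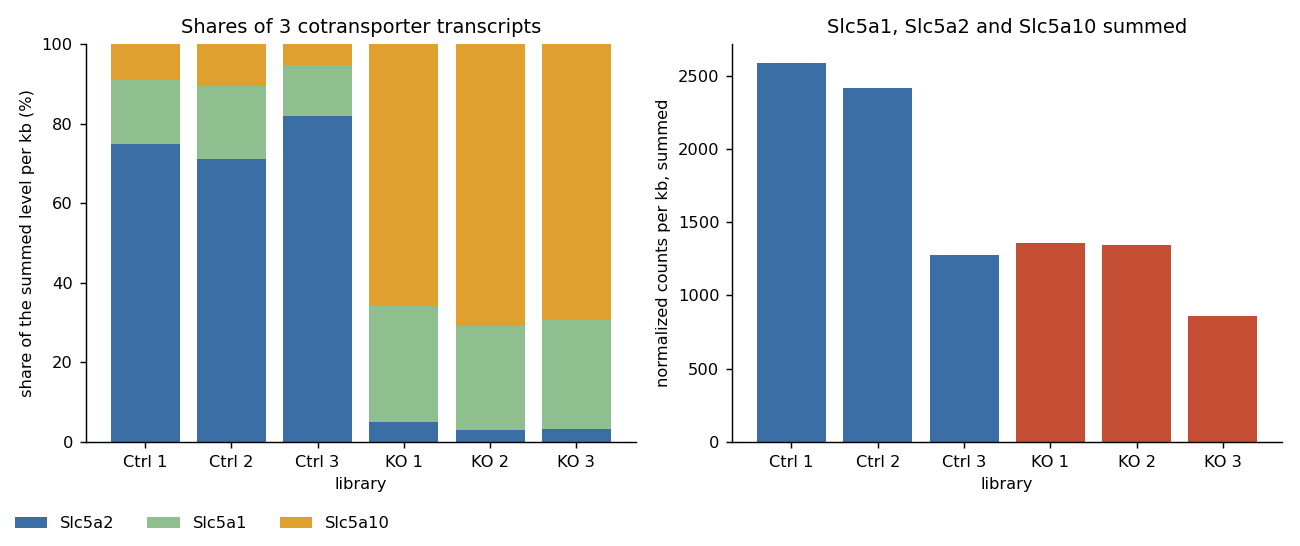
Left, share (%) of the summed level per kb of exon taken by Slc5a2, Slc5a1 and Slc5a10 in each library. Right, that summed level in normalized counts per kb, with Control (Ctrl) in blue and TfR1 knockout (KO) in red. Slc5a2 takes 71.2% or more of each Control bar and at most 5.01% of each knockout bar, and the summed level of Control 3 (1273) lies within the knockout range.

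Slc2a2 (chr3:28596825-28627278, + strand), the gene of the basolateral carrier GLUT2, gave 2510, 2551 and 2614 normalized counts in Controls and 1614, 858.5 and 978.1 in knockouts. The Controls were nearly equal, the highest being 1.04 times the lowest, and each knockout was lower than all of them. The means were 2558 ± 52.19 and 1150 ± 406.1 (SD, n = 3), 2.22-fold lower in TfR1 knockout (log2 fold change -1.15 ± 0.27 SE, DESeq2 adjusted p = 3.91e-04, edgeR 0.0364). The value ranged from -1.48 to -0.98 with each library left out and passed each time. Without both libraries that held adrenal transcripts it was -1.07 and no longer passed (adjusted p = 0.106), with 2 libraries left in each group. Both the apical and the basolateral carrier of the early proximal tubule were therefore lower, and whether their decreases differed was not tested.

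Slc5a12 (chr2:110437455-110487936, + strand), the low-affinity sodium-lactate cotransporter SMCT2, gave 9787, 9118 and 11514 normalized counts in Controls and 3556, 16030 and 4999 in knockouts. Replicates 1 and 3 of the knockouts lay below all Controls and replicate 2 above them. The log2 fold change of -0.31 ± 0.49 did not pass (DESeq2 adjusted p = 0.735), with a 95% interval from 0.42-fold to 1.57-fold. Without TfR1 knockout 2 it was -1.24 (adjusted p = 2.54e-06), so 1 library decided this call. TfR1 knockout 2 was the knockout with high Xist, and the part of sex in its Slc5a12 level was not tested. With Xist as a covariate the log2 fold change was -0.25 (adjusted p = 0.719).

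Slc5a8 (chr10:88348737-88392250, + strand), which encodes the high-affinity monocarboxylate carrier SMCT1, gave 3324, 4056 and 1477 normalized counts in Controls and 1831, 1560 and 1340 in knockouts. Only Control 3 fell among the knockouts. The log2 fold change of -0.90 ± 0.36 did not pass (DESeq2 adjusted p = 0.0688, edgeR 0.147). Without Control 3 it was -1.23 (adjusted p = 5.85e-07), with Xist as a covariate -0.99 (0.0461) and with scaling by total counts -0.99 (0.0359). The call for Slc5a8 thus turned on 1 Control library and on the scaling.

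Slc5a3 (chr16:92058567-92087718, + strand) encodes SMIT1, which brings the osmolyte myo-inositol into cells. Its normalized counts were 5174, 5096 and 2549 in Controls and 1525, 9800 and 3043 in knockouts. This was the widest spread within a group among the carriers, with the highest knockout 6.42 times the lowest. The log2 fold change was 0.16 ± 0.57 (DESeq2 adjusted p = 0.889) and turned to -0.90 without TfR1 knockout 2 (adjusted p = 0.144). Exons of Mrps6 on the same strand covered 6.38% of its exon bases, and Mrps6 did not pass (log2 fold change -0.36, adjusted p = 0.44).

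The fructose carrier GLUT5, encoded by Slc2a5 (chr4:149493392-149518278, + strand), had 1028, 1140 and 681.4 normalized counts in Controls and 796.5, 562.9 and 428.5 in knockouts. The 2 groups overlapped at Control 3 and TfR1 knockout 1. The log2 fold change of -0.67 ± 0.31 did not pass (DESeq2 adjusted p = 0.127, edgeR 0.173). It passed without Control 3 (-0.87, adjusted p = 0.0324) and without TfR1 knockout 1 (-0.94, adjusted p = 0.0138), the libraries at the overlap.

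Slc2a9 (chr5:38740512-38894382, - strand), the urate carrier GLUT9, gave 435.3, 519 and 488.7 normalized counts in Controls and 319.2, 487.5 and 319.7 in knockouts. TfR1 knockout 2 lay within the Control range and the other knockouts below it. The log2 fold change was -0.36 ± 0.24 (DESeq2 adjusted p = 0.344), and without that library -0.59 (adjusted p = 0.0307). Slc2a4 (chr11:69756045-69761690, - strand), the GLUT4 gene, gave 759.4, 939.8 and 363.8 normalized counts in Controls and 753.8, 380 and 710.4 in knockouts. One library of each group was low and the other 4 lay between 710.4 and 939.8 (log2 fold change -0.16 ± 0.40, DESeq2 adjusted p = 0.837, 95% interval 0.52-fold to 1.53-fold). The 9 fat and muscle markers summed to 1322 to 1814 normalized counts in Controls and 1340 to 2333 in knockouts, and none of the 9 was at 0 in every library. Their part in the level of Slc2a4 was not tested.

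**Figure D3:**
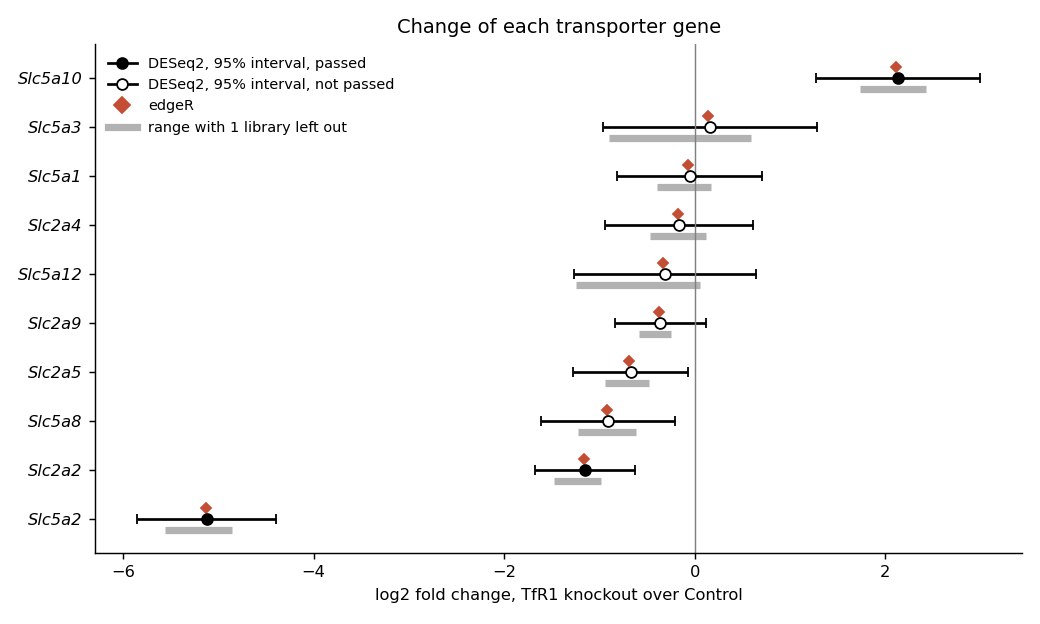
Log2 fold change of each carrier, TfR1 knockout over Control. Circles are DESeq2 estimates with 95% intervals, filled where the adjusted p was under 0.05, diamonds are edgeR estimates and grey bars span the estimates with 1 library left out. Slc5a2, Slc2a2 and Slc5a10 are the filled circles, and the grey bars of Slc5a1, Slc5a3, Slc5a12 and Slc2a4 reach both sides of 0.

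Levels were also ordered within each group after division by exon length, which makes genes more comparable. The length was the union of all annotated exons and not that of the transcripts expressed here, so the order is approximate. In Controls Slc5a12 was the most abundant carrier (2497 ± 304.4 normalized counts per kb, SD, n = 3), followed by Slc5a2 (1567 ± 467.6) and Slc2a2 (929.6 ± 18.96). Each of these 3 stood apart from its next lower neighbour, in that their ranges did not overlap. Below them came Slc5a8 (554.8), Slc5a3 (391.6), Slc5a1 (340.3), Slc2a5 (279.2), Slc2a4 (242.7), Slc5a10 (184.8) and Slc2a9 (94.63), and the ranges of neighbours in that stretch overlapped.

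In TfR1 knockout Slc5a12 again had the highest mean (2018 ± 1680 normalized counts per kb, SD, n = 3), but its range overlapped that of Slc5a10 (812.5 ± 190.5), which was second. Slc5a3 (438.9), Slc2a2 (417.9), Slc5a1 (328.4), Slc5a8 (296.4) and Slc2a4 (217) followed, with overlapping neighbours. Slc2a5 (175.2) stood apart from Slc2a9 (73.87), whose range overlapped that of Slc5a2. In this order Slc5a2 moved from the second place to the last, at 44.94 ± 20.92, and Slc5a10 from the ninth to the second.

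**Figure D4:**
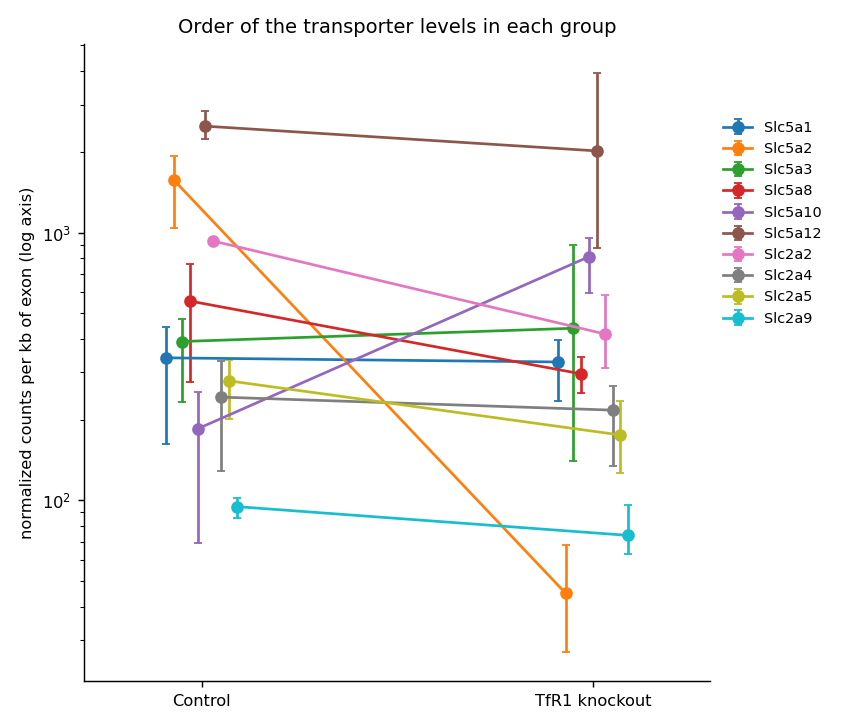
Mean level of each carrier in normalized counts per kb of exon (log axis) in Control and TfR1 knockout, with bars from the lowest to the highest library. Lines join the means of 1 gene. The line of Slc5a2 falls from 1567 to 44.94 and that of Slc5a10 climbs from 184.8 to 812.5.

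To set the carriers against other genes of the same segment, 17 proximal tubule markers were averaged in each library. All 17 were tested, and 1 rose and 5 fell, with a median log2 fold change of -0.31. Pck1, a gluconeogenic enzyme, rose (2.12). Among those that fell were Slc7a9, a cystine carrier (-1.61), Lrp2, the endocytic receptor megalin (-1.48), and Gatm, an enzyme of creatine synthesis (-1.87). In edgeR 1 rose and 1 fell. The mean log2 level of the markers was 13.17, 13.23 and 12.20 in Controls and 12.59, 12.81 and 12.18 in knockouts, with Control 3 at the level of the lowest knockout, a difference of means of -0.34.

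Relative to these markers, the log2 level of Slc5a2 differed by -4.83 between TfR1 knockout and Control, beside its log2 fold change of -5.12. Slc2a2 differed by -0.87 and Slc5a8 by -0.45, with every knockout below every Control. Slc5a10 differed by 2.66 and Slc5a1 by 0.39, with every knockout above. The gap was narrow for Slc2a2, with Control 2 at -1.91 and TfR1 knockout 1 at -1.93. It was narrow too for Slc5a8 (Control 3 at -1.67, TfR1 knockout 1 at -1.75) and Slc5a1 (Control 2 at -2.39, TfR1 knockout 2 at -2.3). The exact permutation test gave p = 0.1 for each of these 5, the smallest possible with 3 against 3. After adjustment over the 10 genes it was 0.2, so none could pass. The share of all genes that are apart on this measure was not computed. All 10 differences use the same marker mean, so the number of genes apart is a description. The other 5 overlapped. Without Control 3 the difference was -0.52 for Slc2a2 and 0.25 for Slc5a1, and without TfR1 knockout 2 it was -0.54 for Slc2a2 and -0.31 for Slc5a8. The 17 were also replaced by 8 markers of the late proximal tubule (the S3 segment). The difference of Slc2a2 was then -0.031 (exact permutation p = 0.9), so its decrease was not seen against the mean of those 8. That of Slc5a8 turned to 0.38 and that of Slc5a1 was 1.23, while Slc5a2 (-3.99) and Slc5a10 (3.49) stayed apart from their Controls. Among those 8, Cyp4b1 rose (1.92) and Slc7a13 (-6.04) and Slc22a13 (-3.61) fell, while their median log2 fold change was only -0.0785. The marker mean is taken on the log2 scale. Large falls such as that of Slc7a13 (36, 4 and 8 counts in the knockouts) therefore weigh heavily on the differences against the S3 markers.

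**Figure D5:**
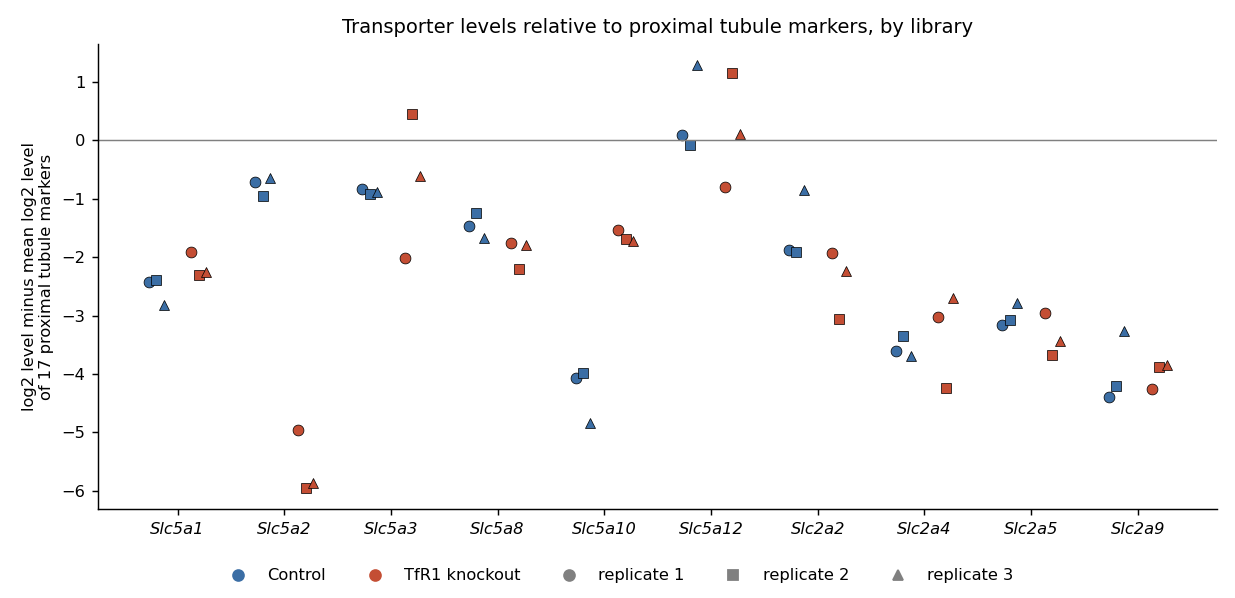
Log2 level of each carrier minus the mean log2 level of 17 proximal tubule markers, by library, with Control in blue and TfR1 knockout in red and marker shapes giving the replicate number. A value of 0 means a level equal to the marker mean. The groups do not overlap for Slc5a1, Slc5a2, Slc5a8, Slc5a10 and Slc2a2, with differences of means of -4.83 for Slc5a2 and 2.66 for Slc5a10. The gap between the groups is narrow for Slc5a1, Slc5a8 and Slc2a2.

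Among 7 other Slc5 genes, 5 were tested, none rose and 1 fell. That was Slc5a9, the mannose and glucose cotransporter SGLT4 (592 ± 162.1 to 239.4 ± 82.29 normalized counts, log2 fold change -1.31, DESeq2 adjusted p = 0.00182, edgeR 0.0534). Among 8 other Slc2 genes, 7 were tested, 1 rose and 1 fell. Slc2a6 rose from a low level (11.32 ± 3.812 to 52.24 ± 47.19, log2 fold change 2.21, adjusted p = 0.0265) and Slc2a12 fell (177.8 ± 23.8 to 94.35 ± 14.92, -0.92, 0.00502), and neither passed in edgeR (0.114 and 0.0607). Slc2a1, the widespread carrier GLUT1, had a log2 fold change of 0.78 that did not pass (DESeq2 adjusted p = 0.12).

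Of 9 partners and regulators of glucose uptake, 8 were tested and 1 rose. It was Sgk1, a kinase that acts on SGLT1 and on sodium channels (7942 ± 1259 to 13396 ± 4003 normalized counts, log2 fold change 0.75, DESeq2 adjusted p = 0.0312, edgeR 0.117). Pdzk1ip1, whose product MAP17 is the partner protein of SGLT2, had 9669 ± 821.5 and 8645 ± 1626 normalized counts and did not pass (log2 fold change -0.16, 95% interval 0.68-fold to 1.17-fold, DESeq2 adjusted p = 0.642). The groups overlapped, and the difference between its change and that of Slc5a2 was not tested.

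Of 12 genes of lactate handling, which share substrates with Slc5a8 and Slc5a12, 2 rose and 2 fell in DESeq2 and 1 fell in edgeR. Slc16a1, the monocarboxylate carrier MCT1 (log2 fold change 0.40), and Ldha, a lactate dehydrogenase subunit (0.52), rose. Slc16a12, a carrier of creatine (-0.90), and Slc16a4 (-0.79) fell. Of 11 osmolyte genes around Slc5a3, 10 were tested, 2 rose and 1 fell. The betaine carrier Slc6a12 fell from 232.4 ± 63.28 to 24.28 ± 8.161 normalized counts (log2 fold change -3.27, DESeq2 adjusted p = 6.7e-15, edgeR 0.00545). The taurine carrier Slc6a6 (0.79) and the amino acid carrier Slc38a2 (0.95) rose in DESeq2 and not in edgeR.

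Of 8 genes of fructose and mannose metabolism, 1 rose and 1 fell in DESeq2 and none in edgeR. Pmm1, a phosphomannomutase, rose (0.86), and Glyctk, glycerate kinase, fell (-1.48). Of 11 genes of urate handling, 4 rose and 1 fell with either tool, a median log2 fold change of 0.71. The organic anion carrier Slc22a6 had 2693 ± 1296 normalized counts in Controls and 9321 ± 1646 in knockouts and rose (1.79 on the log2 scale), with Slc17a4 (1.57) and xanthine dehydrogenase, Xdh (1.06). Slc22a13, an apical carrier of organic anions and urate, fell (-3.61). All these lists were drawn up with earlier results of these data known, and their counts are a description.

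Several lists of markers of other cells and of injury differed between the groups. The sums of the fat and muscle, red cell, and adrenal and liver lists overlapped between the groups. Of 9 tubule injury markers 8 rose, with summed levels of 39084 to 45564 normalized counts in Controls and 102026 to 168040 in knockouts. Examples were Lcn2 (log2 fold change 2.84), Krt20 (4.24) and Spp1 (1.79). Of 8 macrophage markers 6 rose, from a sum of 2515 to 4061 to one of 7358 to 9230, among them Lyz2 (1.81), Cd14 (3.09) and Cd68 (1.52). Of 8 collecting duct markers 4 rose, among them Aqp2 (2.75), Fxyd4 (0.94) and Aqp3 (1.03). The sum of the 8 went from 10298 to 20271 in Controls to 38200 to 65736 in knockouts. Aqp2 alone gave 5747, 5581 and 2409 of the Control sums and 17805, 50719 and 23564 of the knockout sums. Of 7 markers of the thick ascending limb 6 fell, among them Umod (-3.65), Cldn16 (-1.52) and Kcnj1 (-1.44). Of 9 adrenal and liver markers 4 were tested, none of them an adrenal gene such as Star. Of these, 3 rose, Alb (3.91), Apoa1 (4.30) and Ttr (1.21). The groups overlapped for Ttr, with 4815 normalized counts in Control 3 and 4038 in TfR1 knockout 3. Of the 9 fat and muscle markers 7 were tested and 1 rose, Lep (2.74). Of 8 red cell markers 3 were tested and 1 fell, Slc4a1 (-1.75), while 4 haemoglobin genes were at 0 in every library. In edgeR 5 injury, 5 macrophage and 2 collecting duct markers rose, 4 of the thick limb fell and 1 of adrenal and liver rose. The part of these shifts in the levels of the carriers was not tested.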

How the data were processed

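RNA of 6 whole kidneys (3 Control, 3 TfR1 knockout) was read from poly-A TruSeq libraries. Per the study's methods and the submitters' processing notes, the authors used CASAVA 1.8.2, Trimmomatic, TopHat2 2.0.11 on mm9 and HTSeq, and deposited raw counts per gene with no normalization. Samples were grouped by their labels. All 24422 genes were fitted with DESeq2 1.42.0 in R 4.3.3, the tool the study names (Wald test, median-ratio size factors, no covariate, Benjamini-Hochberg adjustment, independent filtering tuned at 0.05). This left 16509 genes with an adjusted p and a lowest tested mean of 3.51, and 29 genes got no p by outlier filtering. The call was an adjusted p under 0.05, and counts of lists were made from the same fit. Normalized counts are counts over size factors and fold changes are unshrunken. edgeR 4.0.16 (quasi-likelihood test) was the alternative. Counting error was not small beside the spread of 3 libraries for every gene. Exceptions were genes of low count and Slc2a2 in Controls (SD 52.19 at counts of 3044, 2807 and 2428). Levels per kb used the exon union of GENCODE vM1 (mm9). Marker comparisons used log2 of normalized counts plus 1, and exact permutation tests over libraries. The members and lists were chosen with earlier results of these data known. Named are all 10 members and, of each list, up to 3 higher and 3 lower genes of lowest adjusted p among those called. Slc2a1, Pdzk1ip1, Hnf4a and the genes that overlap members fall outside that rule and were named after their values were seen, as were Tfrc, Xist, Ddx3y and Star for checks of the libraries. Epb4.2, a listed red cell marker, was not found by that symbol. Same-numbered libraries of both groups did not deviate together (correlations -0.04, 0.05 and 0.09), and the replicate numbers were treated as names. Replicates of a group differed by more than sampling noise, so each counted as 1 sample. Other size factors, count filters, a 2-fold cut, the replicate block and leaving out each library were tried. Fits without both libraries with adrenal transcripts and with Xist as a covariate (10000 counts or more against fewer) were added after seeing the data. The code was tested on simulated data.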

Additional observations from a re-analysis of the deposited data

How the results depend on the processing

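Of the 10 carriers, 1 was higher under every alternative run. The number lower was 2 or 3 under most, 4 with the replicate block, 1 without both libraries with adrenal transcripts (a setting chosen after seeing the data, with 2 libraries a group) and 2 to 4 with a library left out, 4 without Control 3 or TfR1 knockout 2. Over all genes, 1277 higher and 1186 lower became 493 and 428 in edgeR, 421 and 260 without both libraries with adrenal transcripts, 728 and 736 with a 2-fold cut, and 664 to 1531 and 575 to 1674 with a library left out. Log2 fold changes turned sign for Slc5a1 (0.045 with the replicate block, 0.31 without both adrenal libraries, -0.39 to 0.18 with a library left out), Slc5a3 (-0.0059 with total-count size factors, -0.16 with the block, -0.90 to 0.59), Slc5a12 (-1.24 to 0.052) and Slc2a4 (-0.47 to 0.12). Slc5a8 passed at -0.99 with total-count size factors, -0.79 with the block, -0.99 with Xist as a covariate and, of the fits with a library left out (-1.23 to -0.61), only without Control 3. Slc2a5 passed at -0.68 with the block and, of the fits with a library left out (-0.94 to -0.48), only without Control 3 or TfR1 knockout 1, and Slc2a9 (-0.59 to -0.25) only without TfR1 knockout 2. Slc2a2 did not pass at -1.07 without both adrenal libraries. The block changed no other call of a carrier, and because same-numbered libraries do not deviate together it is only a fit with a shared number. Against the markers the sign turned with S3 markers for Slc5a8 (0.38), Slc5a12 (0.56), Slc2a5 (0.49) and Slc2a9 (0.79), while Slc2a2 went from -0.87 to -0.031. The sign also turned without both adrenal libraries for Slc2a4 (-0.11), and with a library left out for Slc5a3 (-0.43 to 0.80), Slc5a12 (-0.78 to 0.20), Slc2a4 (-0.087 to 0.68) and Slc2a9 (-0.26 to 0.30). The SGLT2 to SGLT1 difference kept its sign under all 10 alternatives. Total-count scaling moved the median of all genes to -0.098. The cause of these shifts was not tested. With 3 libraries a group, changes inside the intervals given were not resolved.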
